A study of Mus musculus with 32 samples.

Results

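Transcript levels of 10 naive pluripotency factors were followed through every group of an RNA sequencing study of mouse embryonic stem cells. The genes were taken by name: Nanog, Esrrb, Klf2, Klf4, Tfcp2l1, Tbx3, Zfp42, Prdm14, Nr0b1 and Dppa3. All 10 were found in each of the 5 deposited tables, which list 14267 to 16381 genes each and 17440 different genes in all. All 10 also passed the filter on low values (a mean of at least 10 over the libraries of a table) in every table.

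The cells were E14, a mouse embryonic stem cell line, and the study asked how gene expression depends on CTCF, a zinc finger protein that binds DNA and anchors chromatin loops, and on RAD21, a subunit of the cohesin ring that extrudes those loops. In each line the protein was fused to an auxin-inducible degron (AID), which leads to its degradation once an auxin is added to the culture. CTCF AID cells received 500 uM indole-3-acetic acid (IAA) for 0, 12 or 24 h, and RAD21 AID cells received 1 uM 5-Ph-IAA for 0, 12 or 24 h. CTCF AID cells labelled as serum cultures received IAA for 0 or 12 h. A further set of CTCF AID cells carried a control construct, overexpressed wild-type CTCF or overexpressed mutated CTCF, each without IAA and with IAA (12 h in the treatment labels). The last set, also CTCF AID cells, carried a control hairpin or a hairpin against Chd4, the ATPase of the NuRD chromatin remodelling complex, with no auxin named. The nature of the mutation in CTCF, the number of clones behind each line and whether the paired libraries came from separate cultures are not given in the sources used here, so p-values measure only the spread between these libraries.

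Each of the 16 groups held 2 libraries, 32 in all. The growth protocol describes, for every sample, a serum-free medium with leukemia inhibitory factor (LIF), the MEK inhibitor PD0325901 and the GSK3 inhibitor CHIR99021, also for the 4 libraries labelled serum. For 4 further libraries the labels conflict. The pair titled mutated CTCF with no IAA carries a 12 h IAA treatment label, and the pair titled wild-type CTCF with IAA carries an untreated label. Groups here follow the titles. Set out by title, Slc2a3, a gene chosen for this after its values were seen, averaged 32462 normalised counts without and 20165 with IAA in control cells, 34845 and 23173 with wild-type CTCF, and 30493 and 20479 with mutated CTCF. The IAA-titled group was the lower one in all 3 settings (limma adjusted p 2.2e-09, 3.4e-08 and 2.4e-08). Values are the authors' normalised counts, and the library totals lay between 15364584 and 19642332. As a check of the labels, Chd4 mRNA differed by -1.45 on the log2 scale with the Chd4 hairpin, and Ctcf mRNA differed by 1.15 and 1.19 with wild-type and mutated CTCF against their control. The degron acts on protein and the mRNA need not follow it. The embryonic stem cell markers Pou5f1, Sox2, Nanog, Zfp42 and Esrrb were present in all libraries, with summed normalised counts between 34127 and 63791, and 3 of these 5 are among the genes described here.

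The naive state is that of the inner cell mass of the blastocyst, and cultured embryonic stem cells hold it through a network of transcription factors that bind each other's enhancers. LIF acts through STAT3 on Klf4, Tfcp2l1 and, with PI3K signalling, Tbx3. Inhibition of GSK3 relieves Esrrb, Nanog and Tfcp2l1 from repression by TCF7L1, and inhibition of MEK favours Nanog, Prdm14 and Klf2. Medium with both inhibitors holds cells in a uniform naive state, whereas in serum Nanog, Prdm14, Dppa3 and other factors vary from cell to cell and are lower on average. In bulk RNA, fewer expressing cells and less RNA per cell cannot be told apart.

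In GRCm38 coordinates the genes are spread over 7 chromosomes. On the plus strand lie Nanog (chr6, 122707489 to 122714633), Dppa3 (chr6, 122626410 to 122630272), Esrrb (chr12, 86361117 to 86521628), Klf2 (chr8, 72319033 to 72321656), Tfcp2l1 (chr1, 118627945 to 118685168), Tbx3 (chr5, 119670669 to 119684724) and Nr0b1 (chrX, 86191764 to 86195947). On the minus strand lie Klf4 (chr4, 55527143 to 55532466), Zfp42 (chr8, 43295063 to 43306980) and Prdm14 (chr1, 13113457 to 13127163).

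The stretches of DNA just upstream of 3 of the genes are shown because, of the promoters at hand, those of Nanog, Tfcp2l1 and Zfp42 held a match to a motif searched for. In the first set of CTCF AID cells, in serum-free medium, all 3 genes also changed after loss of CTCF. There Nanog moved in the other direction from Tfcp2l1 and Zfp42. In serum all 3 fell, and with IAA in the overexpression control only Tfcp2l1 of the 3 changed. The RefSeq promoter table (GRCm38.p6) held 7 of the 10 genes, and Tbx3, Prdm14 and Dppa3 were not matched in it. Each sequence is the 250 bases before the first annotated start, on the gene's own strand, 5′ to 3′. They lie at chr6:122707239-122707488 (plus strand) for Nanog, chr1:118627695-118627944 (plus strand) for Tfcp2l1 and chr8:43307010-43307259 (minus strand) for Zfp42. Capitals mark matches, on either strand, to the octamer core TTTGCAT, which POU factors such as OCT4 recognise, and to the KLF element GGGNGTGG, which Krüppel-like factors recognise.
Nanog promoter: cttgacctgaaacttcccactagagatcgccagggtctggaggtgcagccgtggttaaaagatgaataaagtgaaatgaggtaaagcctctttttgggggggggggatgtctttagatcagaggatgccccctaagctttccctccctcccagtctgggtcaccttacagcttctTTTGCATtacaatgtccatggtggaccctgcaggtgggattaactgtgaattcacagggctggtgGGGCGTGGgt
Tfcp2l1 promoter: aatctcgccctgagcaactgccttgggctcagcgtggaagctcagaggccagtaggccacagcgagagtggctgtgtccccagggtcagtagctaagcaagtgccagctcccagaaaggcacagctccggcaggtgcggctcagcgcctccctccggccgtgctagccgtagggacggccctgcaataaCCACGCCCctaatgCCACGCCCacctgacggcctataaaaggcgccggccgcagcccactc
Zfp42 promoter: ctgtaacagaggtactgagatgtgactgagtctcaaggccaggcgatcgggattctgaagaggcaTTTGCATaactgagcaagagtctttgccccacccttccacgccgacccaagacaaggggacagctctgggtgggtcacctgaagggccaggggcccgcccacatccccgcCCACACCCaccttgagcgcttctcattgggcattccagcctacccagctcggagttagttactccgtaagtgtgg

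The octamer core lay 75 to 69 bases before the start in Nanog and 185 to 179 bases before it in Zfp42, and 4.12% of 32851 mouse promoters of the same length hold it. KLF elements lay 10 to 3 bases before the start in Nanog, 75 to 68 in Zfp42, and 61 to 54 and 47 to 40 in Tfcp2l1, and 15.9% of all promoters hold 1 or more. Esrrb, Klf2, Klf4 and Nr0b1 had neither motif in this window. The estrogen-related receptor element AAGGTCA, found in 4.08% of all promoters, matched none of the 7 windows. The 2 KLF matches in Tfcp2l1 and the single one in Nanog are identical apart from strand. These matches are letters in a window and were not set against any measure of binding.

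Without auxin, the genes spanned a wide range of levels. Compared per kilobase of annotated exon (GENCODE M21, GRCm38) in CTCF AID cells at 0 h, the most abundant was Nanog, a homeodomain factor at the centre of the network, with 7013 ± 53.8 normalised counts per kilobase (SD, n = 2), above 99.5% of the genes tested. Zfp42, which encodes the zinc finger protein REX1, followed at 3481 ± 19.9, and Tfcp2l1, a grainyhead-family factor downstream of LIF, at 2227 ± 1.61. Esrrb, an orphan nuclear receptor, stood at 2058 ± 6.54 and the Krüppel-like factor Klf2 at 1856 ± 49.5 on the same scale. Klf4 was at 809 ± 13.2, Nr0b1 (the orphan receptor DAX1) at 502 ± 14.1, the T-box factor Tbx3 at 406 ± 37.3 and Prdm14, which restrains FGF signalling and DNA methylation, at 377 ± 5.58. Dppa3, which encodes STELLA, a maternal factor that protects DNA methylation at imprinted genes, was the lowest at 171 ± 7.98, above 67.3% of the genes. Tbx3 and Prdm14, next to each other in this order, did not differ beyond the spread of the Tbx3 libraries (SD 37.3 per kilobase, n = 2). Near-identical copies can divide reads: of the 10 genes, Dppa3 had 2 processed pseudogenes of at least 90% identity over at least 300 bases (Dppa3-ps at 98.2% and Gm47576 at 91.1%), and neither is listed in a table. Exons of the antisense gene Tbx3os1 overlap Tbx3 and those of the small nuclear RNA Gm23497 overlap Tfcp2l1, so these 2 levels are uncertain to that extent.

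**Figure D1:**
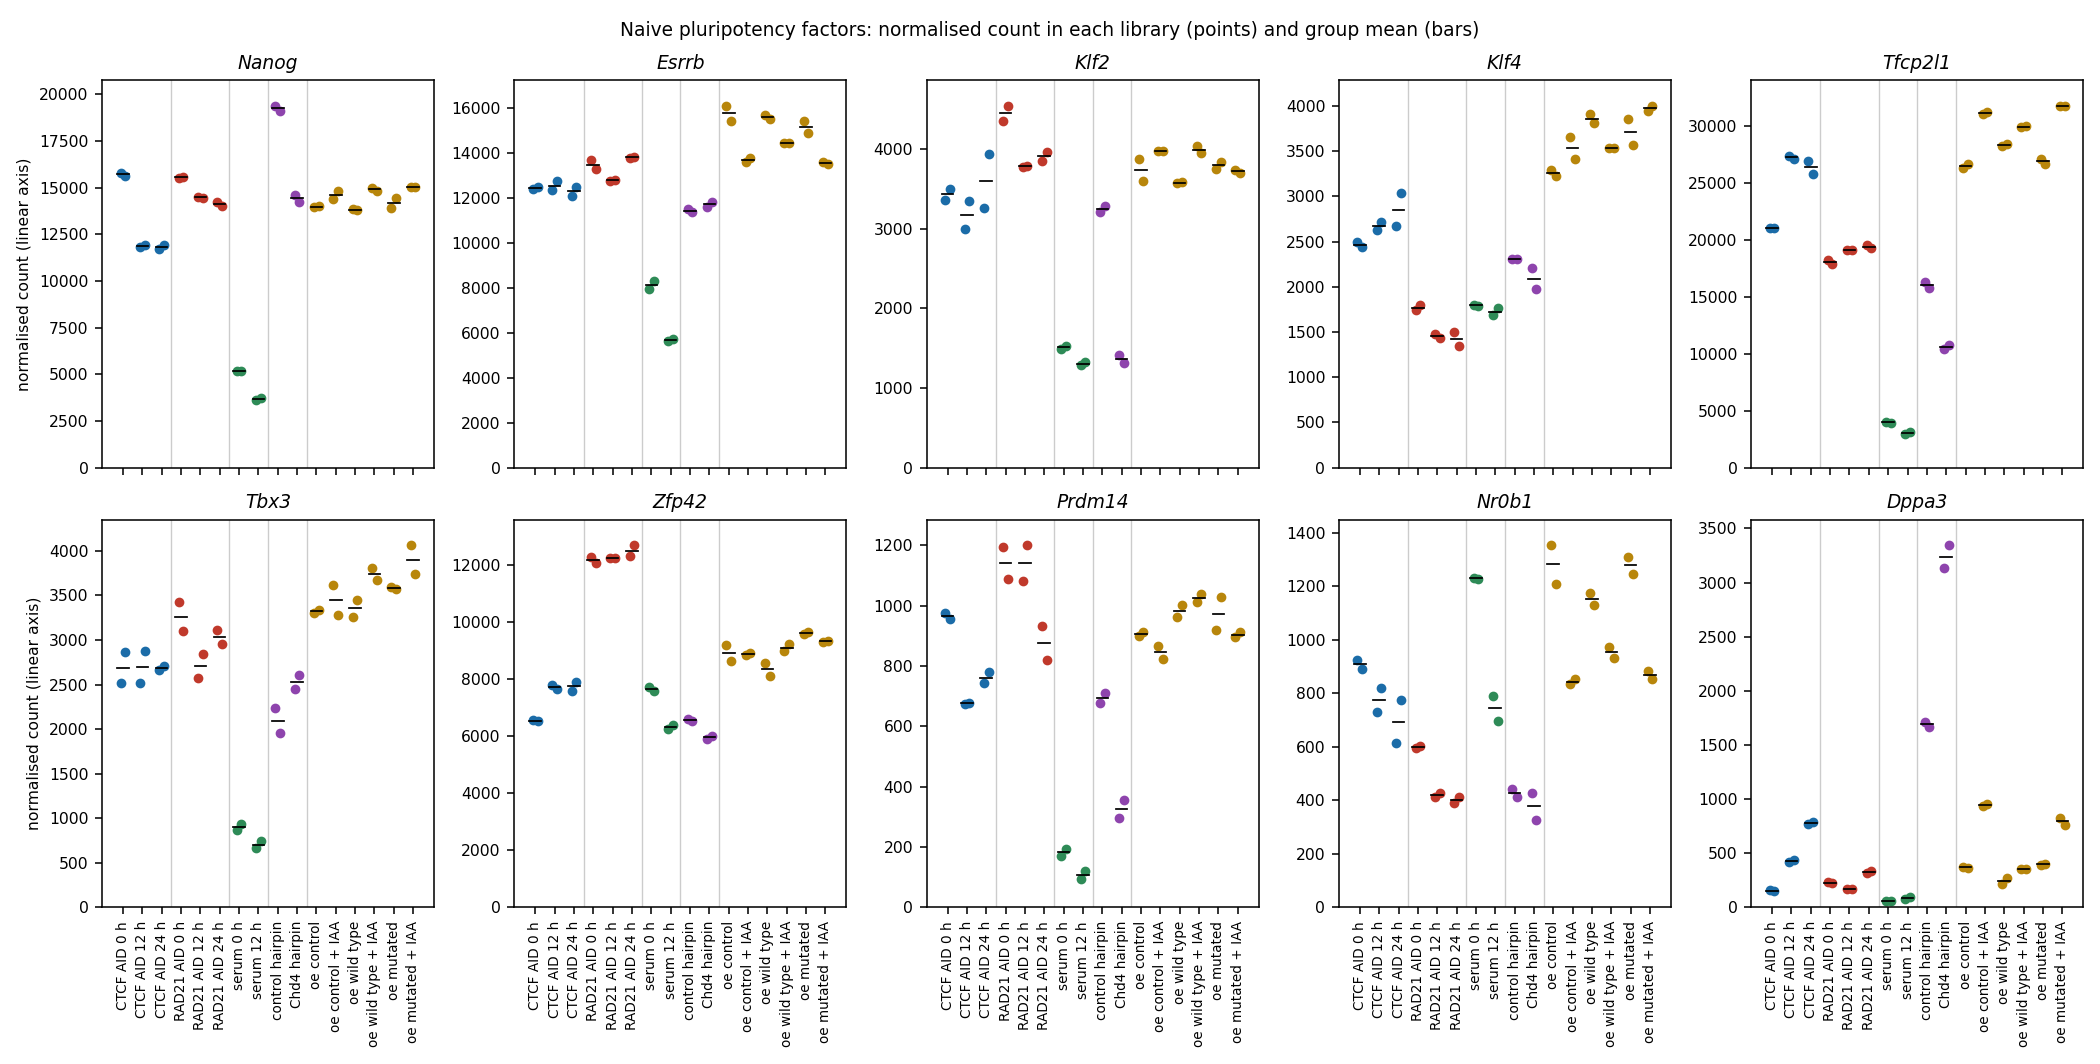
Normalised count of each gene (vertical axis, linear, from 0) in all 32 libraries, with groups along the horizontal axis, 1 point per library and a short bar for the mean of 2; vertical lines separate the 5 tables, which were normalised separately. Dppa3 runs from 55.2 in serum to 3343 with the Chd4 hairpin, while Zfp42 stays between 5915 and 12693 in all 32 libraries.

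The control libraries of the 5 tables show how far each gene moved between lines and media. These levels are a description, since the tables were normalised separately. The highest control mean over the lowest was 29.2-fold for Dppa3, 6.63-fold for Tfcp2l1, 6.27-fold for Prdm14, 3.71-fold for Nanog and 3.70-fold for Tbx3. It was 3.00-fold for Nr0b1, 2.94-fold for Klf2, 1.94-fold for Esrrb, 1.86-fold for Zfp42 and 1.84-fold for Klf4. Serum held the lowest mean for every gene but Klf4, Zfp42 and Nr0b1, and without the serum table the ratio for Dppa3 was still 11.1-fold. Set against CTCF AID cells in serum-free medium, untreated serum cells held 19.0% of the Tfcp2l1 level, 18.8% of Prdm14, 33.0% of Nanog, 33.4% of Tbx3 and 37.9% of Dppa3. Klf2 was at 44.1%, Esrrb at 65.4% and Klf4 at 72.9%, while Zfp42 was at 117% and Nr0b1 at 135%.

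After CTCF degradation in serum-free medium, the 10 genes did not move as a block: Nanog and Prdm14 fell, Tfcp2l1, Zfp42 and Dppa3 rose, and Esrrb, Klf2, Klf4, Tbx3 and Nr0b1 did not pass the test. The test, here and below, was limma on log2(normalised count + 1), and a gene passed it with an adjusted p (Benjamini-Hochberg, over every gene tested in its table) under 0.05. At 12 h 3 genes rose and 2 fell, where 17.8% of all 13699 genes changed (9.39% up and 8.40% down). At 24 h the same 3 rose and the same 2 fell, with 22.5% of all genes changed (11.7% up and 10.8% down). The median log2 difference of the 10 was 0.01 at 12 h and 0.03 at 24 h, beside 0.00 over all genes at both times.

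Nanog stood at 15808 and 15637 normalised counts at 0 h, at 11846 and 11924 at 12 h and at 11694 and 11922 at 24 h. All 4 treated libraries lay below both untreated ones, and those of the 2 treated times overlapped. The change was -0.40 on the log2 scale at 12 h (SE 0.03, limma adjusted p 0.00030) and -0.41 at 24 h (limma adjusted p 0.00021), so that Nanog fell by 24.4% and 24.9%. Prdm14 went from 976 and 956 to 676 and 679 at 12 h, with 744 and 780.2 at 24 h. It fell by 0.51 (SE 0.07, limma adjusted p 0.0034) and 0.34 (limma adjusted p 0.013) on the log2 scale, and both 24 h libraries lay between the other times.

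Tfcp2l1 moved the other way, from 21024 and 21003 at 0 h to 27375 and 27102 at 12 h and 26913 and 25794 at 24 h. Its log2 differences were 0.37 (SE 0.03, limma adjusted p 0.00040) and 0.33 (limma adjusted p 0.00052). Within a library, the ratio of Tfcp2l1 to Nanog was 1.330 and 1.343 at 0 h and lay between 2.163 and 2.311 in the 4 treated libraries. Zfp42 rose from 6574 and 6521 to 7781 and 7648 at 12 h and to 7604 and 7918 at 24 h, by 0.24 and 0.25 on the log2 scale (limma adjusted p 0.0060 and 0.0041).

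Dppa3 had the largest change of the 10 and kept rising. It stood at 158 and 148 at 0 h, 415 and 434 at 12 h and 768 and 787 at 24 h, with no overlap between times. The log2 difference was 1.47 at 12 h (SE 0.10, 95% interval 1.24 to 1.69, limma adjusted p 0.00022) and 2.34 at 24 h (limma adjusted p 4.3e-05). Between 12 and 24 h it differed by 0.87 (limma adjusted p 0.034), the only 1 of the 10 to pass there, where 0.146% of all genes did (0.0876% up and 0.0584% down). That last call ended when any 1 of the 4 libraries was left out, with adjusted p between 0.075 and 0.21 and log2 differences of 0.84 to 0.90.

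The other 5 genes gave a spread of answers. Esrrb was at 12419 and 12475 at 0 h and between 12097 and 12739 in the treated libraries, and its 12 h log2 difference was 0.01 with a 95% interval of -0.07 to 0.09. Tbx3 libraries overlapped at all times, between 2512 and 2879. Nr0b1 was at 926 and 890.0 at 0 h, 730.2 and 820.4 at 12 h and 613 and 775 at 24 h, lower in every treated library but with log2 differences of -0.23 and -0.40 that did not pass (limma adjusted p 0.24 and 0.056). The 24 h difference passed under quantile normalisation and with the replicate number in the fit (limma adjusted p 0.046 and 0.044), and without the second 24 h library, where it was -0.57 (limma adjusted p 0.017). Klf4 lay above its 0 h libraries (2495 and 2438) in all treated libraries (2629 to 3039) without passing, and without the first 24 h library its difference was 0.30 (limma adjusted p 0.018). The 24 h call of Prdm14 ended without either 0 h library or the first 24 h library (adjusted p 0.054 to 0.079), and the 12 h call of Zfp42 without the first 12 h library (adjusted p 0.053). Markers of other cell types moved in the same libraries. The summed normalised count of primitive endoderm markers (8 of 12 listed, with Gata6, Sox17, Sox7 and Foxa2 not in the table) was 3998 to 4193 at 0 h, 4525 to 4540.3 at 12 h and 5522 to 5756 at 24 h. That of mesoderm markers (3 of 7 listed) was 86.9 to 92.7, 135 to 197 and 243 to 250.4, and that of 2-cell-like markers (8 of 11 listed) was 548 to 552, 353 to 402 and 267 to 284. That of trophoblast markers (6 of 10 listed) was 1621 to 1653, 1308 to 1372 and 1412 to 1421. Of the 7 primitive endoderm markers tested, 1 rose and none fell at 12 h, with a median log2 difference of -0.04. At 24 h 2 rose and 1 fell, with a median of 0.15. All genes changed in 17.8% and 22.5% of cases at these times. The part of these markers in the results was not tested.

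**Figure D2:**
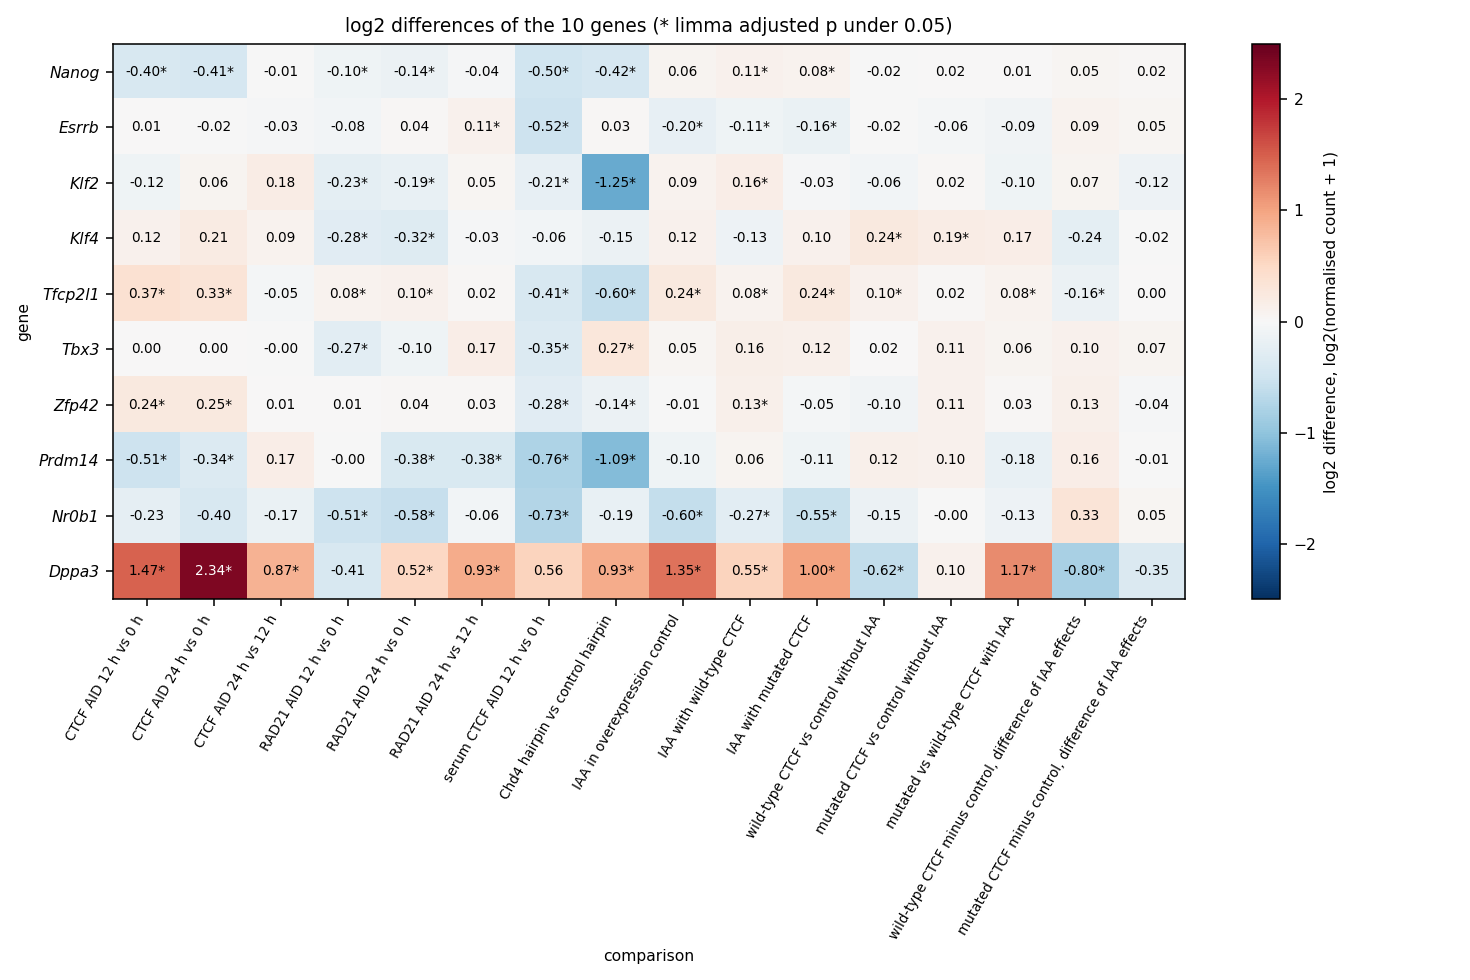
Difference of each gene (rows) in each of the 16 comparisons (columns) on the log2(normalised count + 1) scale, printed in each cell and coloured from blue (lower) to red (higher), with a star where the limma adjusted p was under 0.05. The Dppa3 row reaches 2.34 after 24 h of CTCF degradation, and the serum column holds only values below 0 apart from that of Dppa3.

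In serum, where several factors started lower, 12 h of IAA gave a more uniform pattern. Of the 10 genes 8 fell and none rose, where 17.0% of all 14494 genes changed (7.73% up and 9.25% down). The median log2 difference of the 10 was -0.38, beside 0.00 over all genes. The genes that did not pass were Klf4, at 1802 and 1792 against 1685 and 1764, and Dppa3, at 60.7 and 55.2 against 76.7 and 95.5. For Dppa3 the log2 difference was 0.56 with a 95% interval of 0.10 to 1.01 (limma adjusted p 0.097), so a rise like that in serum-free medium was not shown at this low level. With the tables fitted separately, the difference between the media was not tested for any gene.

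Nanog fell from 5204 and 5186 to 3631 and 3722, by 0.50 on the log2 scale (SE 0.03, limma adjusted p 9.9e-05). Esrrb, which did not pass in serum-free medium, fell from 7967 and 8317 to 5642 and 5739.8, by 0.52 (limma adjusted p 8.1e-05). Tfcp2l1, which rose in serum-free medium, fell here from 4022 and 3954 to 2915 and 3096, by 0.41 (limma adjusted p 0.00063). The ratio of Tfcp2l1 to Nanog within a library was 0.773 and 0.763 before and 0.803 and 0.832 after IAA, so the ratio moved little while both genes fell.

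Zfp42, the other gene that rose in serum-free medium, fell from 7718 and 7597 to 6245 and 6389 (log2 difference -0.28, limma adjusted p 0.00054). Nr0b1 fell from 1232 and 1228 to 789.9 and 698, a change of -0.73 in log2 (SE 0.07, limma adjusted p 0.00074). Prdm14 went from 169 and 195 to 94.8 and 119.7, the largest log2 difference of the 10 at -0.76 (SE 0.16, limma adjusted p 0.021). Klf2 fell from 1495 and 1528 to 1288 and 1323, and Tbx3 from 864 and 931 to 669 and 741, by 0.21 and 0.35 on the log2 scale (limma adjusted p 0.023 and 0.021). The calls of Klf2, Prdm14 and Tbx3 all ended without the second untreated library (adjusted p 0.066 to 0.079) or without the first treated one (0.12 to 0.13), and that of Klf2 also without the second treated one (0.090). The calls of Nanog, Esrrb, Tfcp2l1, Zfp42 and Nr0b1 held under every alternative tried. Mesoderm markers (3 of 7 listed, with Mesp1, Tbx6, Hand2 and Msgn1 not in the table) summed to 50.1 to 72.8 before and 147 to 153 after IAA, and primitive endoderm markers (10 of 12 listed) to 5974 to 6221 and 6251 to 6421, and their part in the results was not tested.

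**Figure D3:**
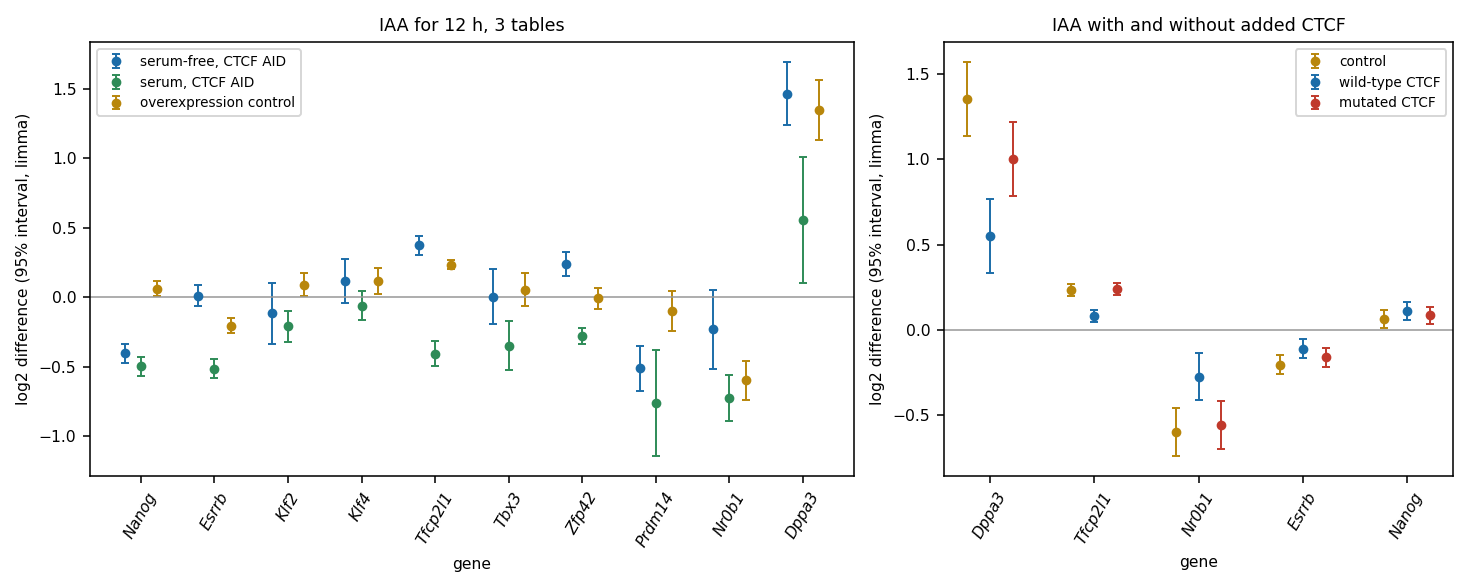
Left, log2 difference after 12 h of IAA with its 95% interval for each gene in 3 tables: serum-free CTCF AID cells, serum CTCF AID cells and the control of the overexpression set. Right, the IAA difference for 5 genes in control cells and with wild-type or mutated CTCF; the Dppa3 difference is 1.35 in the control, 0.55 with wild-type and 1.00 with mutated CTCF.

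The overexpression set gave IAA differences in a further group of CTCF AID cells, the control. There 2 genes rose and 2 fell, where 25.3% of all 13938 genes changed (12.8% up and 12.5% down). Dppa3 rose from 376 and 363 to 938 and 951, by 1.35 on the log2 scale (SE 0.10, limma adjusted p 4.8e-06). Tfcp2l1 rose from 26278 and 26620.3 to 31062 and 31211, by 0.24 (SE 0.02, limma adjusted p 3.1e-06). Nr0b1 fell from 1353 and 1210.1 to 835 and 852 (log2 difference -0.60, limma adjusted p 6.9e-05), and Esrrb from 16112 and 15433 to 13612 and 13760.3 (-0.20, limma adjusted p 0.00019). Each of these 4 held under every alternative. Neural markers (4 of 8 listed) summed to 2263 to 2340 normalised counts without and 3649 to 3761 with IAA in the control. Of the 4 tested, 2 rose and none fell. Their sums were 2163 to 2200 and 3337 to 3501 with wild-type CTCF. There 2 of the 4 rose and 1 fell, where 21.4% of all genes changed, with a median log2 difference of 0.06. With mutated CTCF the sums were 2741 to 2830 and 4069 to 4228. There 2 of the 4 rose and none fell, where 16.2% of all genes changed, with a median of 0.15. Trophoblast markers (7 of 10 listed, with Elf5, Gata3 and Hand1 not in the table) summed to 1627 to 1704 normalised counts without and 1969.7 to 2016 with IAA in the control. Of the 6 trophoblast markers tested, 1 rose and 1 fell, with a median log2 difference of -0.10. The part of these markers in the results was not tested.

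The other 6 genes did not pass in these control cells, among them 3 that changed in the first set of CTCF AID cells. Nanog was at 13959 and 14013 without IAA and at 14379.5 and 14821 with it, a log2 difference of 0.06 with a 95% interval of 0.01 to 0.11. In the first set the interval for Nanog at 12 h was -0.47 to -0.33. Prdm14 was at 900.2 and 912 against 866 and 825, and Zfp42 at 9215 and 8635 against 8835 and 8918. Both sets are labelled CTCF AID cells with 12 h of IAA, and because they were normalised in separate tables the differences between them are side by side values with no test.

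With wild-type CTCF present, IAA moved Dppa3 less. Its libraries stood at 216 and 267 without IAA and at 354 and 350.1 with it, and the latter lay below both untreated controls. The log2 difference was 0.55 (limma adjusted p 0.0028), and the difference between this and the control's IAA effect was -0.80 (SE 0.14, 95% interval -1.11 to -0.50, limma adjusted p 0.017). Tfcp2l1 went from 28231 and 28403 to 29908 and 29936, 0.08 higher in log2 (limma adjusted p 0.0058), and its effect differed from that in the control by -0.16 (SE 0.02, limma adjusted p 0.0067). These 2 genes were the only ones of the 10 whose IAA effect with wild-type CTCF differed from the control's, where 1.41% of all genes did (1.10% with a higher and 0.309% with a lower value), while 6 of the 10 had an unadjusted p under 0.05. Klf4 was among the other 4 of those 6, with an interaction of -0.24 (95% interval -0.38 to -0.11, limma adjusted p 0.10). The Dppa3 interaction ended without either control library, either control library with IAA or either wild-type library with IAA (adjusted p 0.055 to 0.074, log2 differences of -0.83 to -0.78), and it passed at -0.96 and -0.65 without the first or the second wild-type library free of IAA.

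Nr0b1 fell less with wild-type CTCF, from 1174 and 1132 to 974 and 933 (log2 difference -0.27, limma adjusted p 0.012), but the interaction of 0.33 had a 95% interval of 0.13 to 0.53 and did not pass (limma adjusted p 0.14). Esrrb went from 15680.4 and 15516 to 14437 and 14458 (log2 difference -0.11, limma adjusted p 0.011), with an interaction of 0.09 that did not pass (limma adjusted p 0.33). Nanog, Klf2 and Zfp42 were higher with IAA by 0.11, 0.16 and 0.13 on the log2 scale, so that 5 genes rose and 2 fell, where 21.4% of all genes changed (11.1% up and 10.3% down). The calls of Esrrb, Klf2, Nanog, Nr0b1 and Zfp42 were each lost without at least 1 of the 4 wild-type libraries, with adjusted p between 0.054 and 0.18, and 3 calls were left without the first wild-type library with IAA.

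With mutated CTCF, IAA raised Dppa3 from 393 and 402 to 826 and 765, by 1.00 on the log2 scale (limma adjusted p 0.00010). Tfcp2l1 went from 27101 and 26657 to 31705 and 31757, by 0.24 (limma adjusted p 9.5e-06), and Nr0b1 fell from 1309 and 1247 to 884 and 855 (log2 difference -0.55, limma adjusted p 0.00027). Esrrb fell from 15406 and 14896 to 13612 and 13523 (-0.16, limma adjusted p 0.0017) and Nanog rose by 0.08 (limma adjusted p 0.033), a call that ended without the first mutated library free of IAA or either one with IAA (adjusted p 0.12 to 0.21). In all, 3 genes rose and 2 fell, where 16.2% of all genes changed (8.31% up and 7.92% down). None of the 10 had an IAA effect with mutated CTCF that differed from the control's by limma, where 1.64% of all genes did (1.05% with a higher and 0.581% with a lower value), and 1 of the 10 had an unadjusted p under 0.05. For Dppa3 that interaction was -0.35 with a 95% interval of -0.66 to -0.05 (limma adjusted p 0.32), and for Tfcp2l1 it was 0.00 with an interval of -0.05 to 0.05. With IAA in both, Dppa3 was higher with mutated than with wild-type CTCF by 1.17 (SE 0.10, limma adjusted p 0.00032), and Tfcp2l1 by 0.08 (limma adjusted p 0.024), a call lost without any 1 of the 4 libraries (adjusted p 0.11 to 0.17). These were 2 of the 10 genes, where 2.25% of all genes differed (1.08% higher and 1.18% lower).

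Added CTCF also went with differences where no IAA was given. Dppa3 was lower with wild-type CTCF than in control cells, at 216 and 267 against 376 and 363 (log2 difference -0.62, SE 0.10, limma adjusted p 0.015). Klf4 was higher, at 3913 and 3808 against 3292 and 3228 (0.24, limma adjusted p 0.029), and Tfcp2l1 was higher by 0.10 (limma adjusted p 0.017). These were 3 of the 10 genes, where 0.897% of all genes differed (0.502% higher and 0.395% lower). Without the first control library or the first wild-type library all 3 calls ended, and 1 call was left without either of the others. Taking the groups of the 4 libraries in conflict from the treatment label pools the wild-type libraries titled without and with IAA. For Dppa3 these stood at 216 and 267 and at 354 and 350.1. With that pooling none of the 3 passed by limma, and the Dppa3 difference was -0.34 (limma adjusted p 0.83). Because it mixes both titles, this grouping does not decide whether the calls hold. With mutated CTCF only Klf4 differed from the control, at 3849.9 and 3572 (0.19, limma adjusted p 0.035), where 5.55% of all genes did (3.31% higher and 2.24% lower), and this call ended without either control library or the first mutated one (adjusted p 0.093 to 0.20). Dppa3 was at 393 and 402 there, a log2 difference of 0.10 from the control.

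Degradation of RAD21 in serum-free medium lowered more of the 10 genes than it raised, by small amounts. At 12 h 5 genes fell and 1 rose, where 13.0% of all 13738 genes changed (6.66% up and 6.35% down), and at 24 h 5 fell and 2 rose, where 13.7% changed (6.54% up and 7.16% down). The median log2 difference of the 10 was -0.17 at 12 h and -0.12 at 24 h, beside 0.00 over all genes. At 12 h no more than 1 call was left when any single library was omitted, and the log2 differences kept their signs. At 24 h 4 calls were left without the first 0 h library or the first 24 h library, and 2 without the second of either.

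Nr0b1 had the largest of these falls, from 596 and 601 at 0 h to 411 and 427 at 12 h and 391 and 412 at 24 h. Its log2 differences were -0.51 (limma adjusted p 0.012) and -0.58 (limma adjusted p 0.0075), and the latter held under every alternative. Nanog went from 15528 and 15576 to 14521 and 14477 and then 14218 and 14028, log2 differences of -0.10 and -0.14 (limma adjusted p 0.018 and 0.0057), and the 24 h value held under every alternative. Klf4 fell from 1742 and 1794 to 1474 and 1432 and then 1502 and 1341, by 0.28 and 0.32 on the log2 scale (limma adjusted p 0.037 and 0.025).

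Klf2 fell from 4353 and 4541 to 3775 and 3783 and then 3842 and 3966, by 0.23 and 0.19 (limma adjusted p 0.011 and 0.022). Tbx3 was lower at 12 h, at 2569 and 2846 against 3424 and 3099.6 (log2 difference -0.27, limma adjusted p 0.046), but not at 24 h (3114 and 2957). Tfcp2l1, at 18210.5 and 17906 before, 19094 and 19115 at 12 h and 19519.7 and 19259 at 24 h, rose by 0.08 and 0.10 (limma adjusted p 0.032 and 0.014). Zfp42 did not pass at either time, and its libraries lay between 12084 and 12693.

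Prdm14 and Dppa3 changed mainly between 12 and 24 h. Prdm14 was at 1194 and 1089 at 0 h, 1081 and 1200.2 at 12 h and 933 and 820.1 at 24 h, and fell by 0.38 from 12 to 24 h (limma adjusted p 0.035). Dppa3 stood at 236 and 222 at 0 h, dipped to 170.1 and 175 at 12 h without passing (log2 difference -0.41, 95% interval -0.68 to -0.14, limma adjusted p 0.058) and reached 322 and 337 at 24 h. From 12 to 24 h it rose by 0.93 (SE 0.11, limma adjusted p 0.0032), which held under every alternative, and its 24 h value exceeded 0 h by 0.52 (limma adjusted p 0.028). Esrrb rose by 0.11 between these times (limma adjusted p 0.017), so 2 genes rose and 1 fell, where 15.9% of all genes changed (7.67% up and 8.26% down). The 24 h call of Dppa3 against 0 h and that of Esrrb against 12 h ended without any 1 of the 4 libraries compared (adjusted p 0.073 to 0.12), and that of Prdm14 against 12 h without either 12 h library or the second 24 h one (0.069 to 0.17). Primitive endoderm markers (10 of 12 listed, with Sox7 and Foxa2 not in the table) summed to 6027 to 6361 at 0 h, 6886 to 7431 at 12 h and 8042 to 8073 at 24 h. Fibroblast markers (2 of 7 listed) summed to 34.6 at 0 h, 44.6 to 54.5 at 12 h and 66.5 to 111 at 24 h, mesoderm markers (3 of 7 listed) to 53.7 to 64.3, 69.1 to 71.9 and 33.9 to 43.2, and 2-cell-like markers (7 of 11 listed) to 118 to 141, 173 to 199 and 99.7 to 119. Their part in the results was not tested.

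The Chd4 hairpin changed 67.4% of all 15499 genes (33.5% up and 33.8% down), and among the 10 genes 2 rose and 5 fell. The 7 of 10 that passed are near that share, and nothing is read from the count. Klf2 fell most, from 3206 and 3276 to 1407 and 1316, a change of -1.25 in log2 (SE 0.06, limma adjusted p 6.8e-06). Prdm14 went from 676 and 712 to 297 and 356 (log2 difference -1.09, limma adjusted p 0.00016), and Tfcp2l1 from 16309 and 15721 to 10396 and 10738 (-0.60, limma adjusted p 3.1e-05). Nanog fell from 19400.5 and 19129 to 14621 and 14234, by 0.42 on the log2 scale (limma adjusted p 0.00010), and Zfp42 from 6613 and 6539 to 5915 and 6026, by 0.14 (limma adjusted p 0.019).

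Dppa3 rose from the highest control level in the study, 1715 and 1669, to 3130.1 and 3343 (log2 difference 0.93, SE 0.06, limma adjusted p 1.7e-05). Tbx3 rose from 2235 and 1959 to 2454 and 2608 (0.27, limma adjusted p 0.015). Esrrb, Klf4 and Nr0b1 did not pass, with Esrrb at 11520.5 and 11362 against 11612 and 11819. The calls of Nanog, Klf2, Tfcp2l1, Prdm14 and Dppa3 held under every alternative. That of Zfp42 ended without either control library (adjusted p 0.10 to 0.14) and changed sign under quantile normalisation (0.03, limma adjusted p 0.50), and that of Tbx3 ended without the second control library or either hairpin library (0.072 to 0.13). Markers of other cell types moved in these libraries: those of 2-cell-like cells (10 of 11 listed, with 1 at 0 in the control) summed to 77.5 to 106 normalised counts with the control hairpin and to 2550.5 to 2648 with the Chd4 hairpin. Primitive endoderm markers (11 of 12 listed) summed to 5244 to 5489 against 8031 to 8147, and fibroblast markers (4 of 7 listed) to 239.5 to 316 against 569.6 to 659. Of the 11 primitive endoderm markers 8 rose and 3 fell, where 67.4% of all genes changed. The sum of the 5 stem cell markers was 57558 to 57810.1 against 45217 to 45903. The part of these markers in the results was not tested.

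Across the 16 comparisons, Dppa3 passed in 12 (10 higher, 2 lower) and Tfcp2l1 in 12 (9 higher, 3 lower), while Nr0b1 and Prdm14 passed in 6 each, always lower. Nanog passed in 8 (2 higher, 6 lower), and Tbx3, with 3, passed least often. Several of these comparisons share control libraries, so the counts are not independent of each other.

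Dppa3 and Nanog lie in the same cluster on chromosome 6, with starts 81.1 kb apart on the plus strand of GRCm38. The window of 100 kb on either side was chosen after their values were seen. Of the genes listed in this study it holds 10, Dppa3 and Nanog included. Among them are the growth factor gene Gdf3 just before Dppa3, and the glucose transporter gene Slc2a3 beyond Nanog (122727809 to 122801640 on the minus strand). Slc2a3 fell with Nanog after CTCF degradation, with log2 differences of -0.51 at 12 h and -0.48 at 24 h (limma adjusted p 0.00014 and 0.00011), and in serum (-0.54, limma adjusted p 1.6e-05). It also fell by 0.69 with IAA in the overexpression control (limma adjusted p 2.2e-09), where Nanog did not. With wild-type and mutated CTCF, Slc2a3 fell with IAA by 0.59 and 0.57 (limma adjusted p 3.4e-08 and 2.4e-08). These effects differed from the control's by 0.10, which did not pass (limma adjusted p 0.084), and 0.11 (limma adjusted p 0.045). IAA was not given to cells without a degron, so its own effect was not tested. At 12 and 24 h of RAD21 degradation Slc2a3 fell by 0.26 and 0.19 (limma adjusted p 0.0013 and 0.0030), and Nanog fell too. Gdf3, which is nearer to Dppa3, rose by 0.26 at 12 h of CTCF degradation (limma adjusted p 0.032) and by 0.34 at 12 h of RAD21 degradation (limma adjusted p 0.012), when Dppa3 did not rise. Gdf3 did not pass at 24 h of CTCF degradation (0.14, limma adjusted p 0.15), when Dppa3 was highest, and rose by 0.22 with IAA in the overexpression control (limma adjusted p 0.0072), as Dppa3 did. With the Chd4 hairpin Slc2a3 fell by 1.12 (limma adjusted p 2.9e-06) and Gdf3 did not pass (-0.20, limma adjusted p 0.056), while Apobec1, on the far side of Gdf3, rose by 0.96 (limma adjusted p 0.0035). From 12 to 24 h of RAD21 degradation, when Dppa3 rose, Gdf3 fell by 0.26 (limma adjusted p 0.023) and Apobec1 rose by 0.46 (limma adjusted p 0.033). Mfap5, at the edge of the window, averaged 57.6 or fewer in each group and rose by 1.82 with the Chd4 hairpin (limma adjusted p 0.0020) and by 1.33 in serum (limma adjusted p 0.012). It also rose with IAA in the overexpression control (1.57, limma adjusted p 0.026) and with IAA and mutated CTCF (1.54, limma adjusted p 0.040). Not every comparison of these neighbours is listed.

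Covariation among the genes was described over the 28 libraries of the 4 tables without hairpins, on log2 values centred within each table. The libraries share tables, controls and treatments, so no p is given. Of the 45 pairs, 40 had a positive Pearson r, some of them near 0, such as Klf4 with Nanog (0.007) and with Esrrb (0.017). The share over pairs of other genes was not computed, so nothing is read from this count. Nanog and Prdm14 (r 0.807), Esrrb and Nr0b1 (0.754) and Tfcp2l1 and Zfp42 (0.712) were the 3 highest, and Dppa3 had the 3 lowest, with Nr0b1 (-0.602), Prdm14 (-0.568) and Nanog (-0.434). The search covered 8998 genes: those that averaged 100 or more in all 4 tables, and Dppa3, which averaged less in serum. The genes most like Nanog were Med13l (r 0.894) and H1f0 (0.890), and those most like Tfcp2l1 were Sash1 (0.905) and Sesn2 (0.888). Dppa3 was most like Atg13 (0.933) and Snrpn (0.917), Nr0b1 like Smarcc2 (0.876) and Kbtbd11 (0.872), and Esrrb like Dync1li1 (0.875) and Cdc26 (0.857). Prdm14 was most like Gli2 (0.861), Zfp42 like Sash1 (0.798), Klf2 like Macroh2a1 (0.796), Tbx3 like Ago1 (0.777) and Klf4 like Pdgfc (0.735).

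The wider pathway was read from 5 lists, in comparisons where the median log2 difference over all genes lay between -0.01 and 0.01. Of 17 other naive-state genes, 8 rose and 5 fell at 12 h of CTCF degradation (median log2 difference 0.08), where 9.39% of all genes rose and 8.40% fell, among them Dppa2 (log2 difference -1.58) and the imprint regulator Zfp57 (0.90). Of 9 genes of the LIF and STAT3 input, 4 rose and none fell at that time, with a median log2 difference of -0.0007 over the 9. The 4 were the receptor subunit Il6st (0.65), the feedback inhibitor Socs3 (0.33), Stat3 (0.28) and Jak1 (0.22). Of 8 core pluripotency genes 2 rose, Lin28a (1.39) and Sall4 (0.21), and Pou5f1 and Sox2 did not pass. At 24 h the same pair rose (1.67 and 0.25), and Tdgf1 (-0.28) and Pou5f1 (-0.14) fell, where 11.7% of all genes rose and 10.8% fell. Of 13 formative and primed genes tested, 3 rose and 2 fell at 12 h, where 9.39% of all genes rose and 8.40% fell. Those of the list that passed included Lef1 (1.50), a partner of beta-catenin, Sall2 (-0.83) and the DNA methyltransferase genes Dnmt3b (0.71) and Dnmt3a (-0.96). Of 7 repressors of the naive network and exit factors 2 rose at 12 h, Fnip1 (0.32) and Zfp706 (0.19), and 4 at 24 h, when Tsc2 (0.32) and Flcn (0.25) also passed. The counts of 2 of 8 and 2 of 7 at 12 h are near the share of all genes changed, 17.8%, and nothing is read from them.

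In serum 2 of the 17 other naive-state genes rose, 8 fell and 7 did not pass, with a median log2 difference of -0.16, where 7.73% of all genes rose and 9.25% fell. The falls included Tet2 (-0.63) and Fgf4 (-0.62), while Dppa2 rose (0.43). Of 15 formative and primed genes tested there, 6 rose and 2 fell, among them Pou3f1 (0.60) and Lef1 (0.57), and 3 of the 7 repressors fell. With IAA in the overexpression control, where 12.8% of all genes rose and 12.5% fell, 5 of the 8 core genes fell, led by Utf1 (-2.66) and Foxd3 (-1.30), and 2 rose, Tdgf1 by 0.38 and Sall4 by 0.32. Of the 9 LIF and STAT3 genes 5 rose, led by Socs3 (0.68), and Pim1 fell (-0.25). Sall4 and Pim1 were named here after their values were seen. With the Chd4 hairpin, where 33.5% of all genes rose and 33.8% fell, 5 of the 8 core genes fell, among them Tdgf1 (-0.96), Sox2 (-0.90) and Pou5f1 (-0.40), and 2 rose, among them Utf1 (0.58). Of 15 formative and primed genes 6 rose and 3 fell, with a median log2 difference of 0.01, including Dnmt3l (3.67), Grhl2 (3.39) and Cdh2 (-1.07). That count, 9 of 15, is near the 67.4% of all genes changed by the hairpin, and nothing is read from it. The median log2 difference of the 8 core genes was -0.23 with IAA in the control cells and -0.36 with the Chd4 hairpin. After 12 h of RAD21 degradation, where 6.66% of all genes rose and 6.35% fell, 4 of the 17 other naive-state genes rose and 4 fell, with a median of -0.01, among them Tet2 (-0.38) and Gdf3 (0.34). Of the 9 LIF and STAT3 genes 3 rose and none fell at that time (Jak1 by 0.42, Socs3 by 0.37 and Stat3 by 0.22), with a median of 0.20, while none of the 7 repressors passed by limma, 4 of them with an unadjusted p under 0.05.

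**Figure D4:**
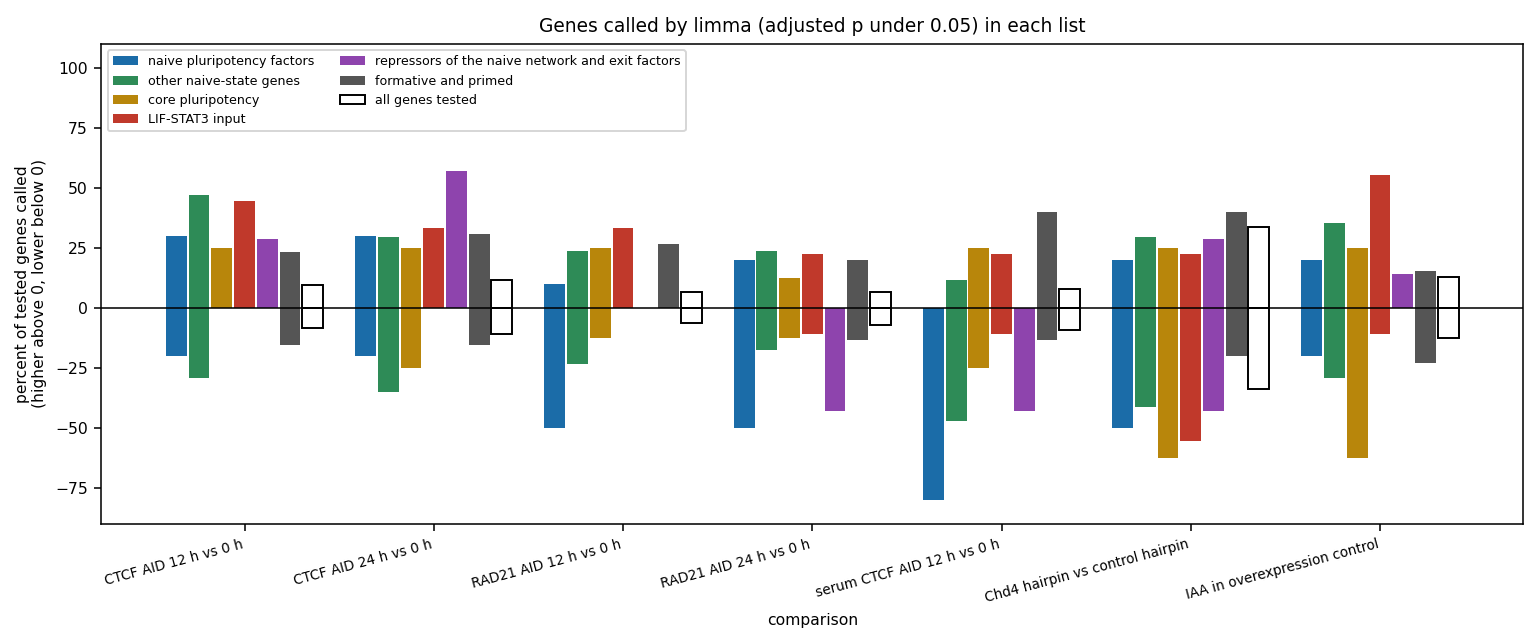
Percent of the tested genes of each list that were called higher (above 0) or lower (below 0) by limma in 7 comparisons, with open bars for all genes tested. In serum the bar of the 10 naive pluripotency factors lies wholly below 0, with 8 of the 10 called, beside 9.25% of all genes called lower.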

How the data were processed

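RNA sequencing of polyadenylated RNA was analysed in 32 libraries of 16 groups, 2 libraries each, grouped by title. The authors deposited 5 tables of signal per gene, their normalised counts, normalised separately. The submitters' processing notes name Trim Galore, Bowtie2, STAR, RSEM, DESeq2 and the build mm10, with no roles; the normalisation is not given in the sources used here. The authors' table of CTCF AID cells in serum-free medium as used here stops inside a line, which was left out and holds none of the 10 genes. Values were taken as log2(normalised count + 1), genes averaging under 10 in a table were left out, and all groups of a table entered 1 fit (limma 3.58.1, trend) with Benjamini-Hochberg adjustment over all genes tested. Tests were made only within a table, in 16 comparisons, 2 of them differences between effects. The procedure was tested on simulated data. Precision is limited by 2 libraries per group, with totals of 15364584 to 19642332. Positions and exon lengths come from GENCODE M21 (GRCm38), matched for 99.914% of gene identifiers, promoters from RefSeq (GRCm38.p6), and copies of transcripts were sought with blastn 2.17.0. The 10 genes are always named. Of the other lists, at most the 4 called genes with the largest change, an average of 100 or more in the higher group and no overlap are named per comparison. The genes, lists and markers were chosen with earlier results of these data known. Alternatives were a pseudocount of 5, no filter or one at 100, quantile normalisation, median-of-ratios scaling, a replicate block, fits of only the groups compared, groups by treatment label and leaving out each library.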

Additional observations from a re-analysis of the deposited data

Results flagged for a closer look

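The change of Dppa3 with IAA differed between cells with wild-type CTCF and control cells by -0.80 on the log2 scale (SE 0.14, limma adjusted p 0.017), from 1.35 in the control to 0.55. The change of Tfcp2l1 differed between the same groups by -0.16 (SE 0.02, limma adjusted p 0.0067), from 0.24 to 0.08. Both were picked out because an effect of the same treatment differed between groups in a test of the difference itself. Both values use the wild-type CTCF libraries with IAA, whose titles conflict with their treatment label. The Dppa3 call did not hold under every alternative, and leaving out 1 library gave differences of -0.96 to -0.65. The Tfcp2l1 call held under every alternative.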

How the results depend on the processing

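Of 66 member differences that passed, 33 held under every alternative, and of 722 alternative values 594 kept direction and call, 127 kept direction only and 1 reversed. The reversal was Zfp42 with the Chd4 hairpin under quantile normalisation, at 0.032 (limma adjusted p 0.50). Of the 127, 104 came from leaving out a library, where a lone library is assumed to vary like the other groups. The pseudocount, both filters and median-of-ratios scaling ended none. Counts of members that passed were as follows. Libraries with the same replicate number showed little shared deviation, with correlations of -0.0634 to 0.102. Whether such libraries were grown or prepared together is not given in the sources used here. The replicate block left 0 of 1 between 12 and 24 h of CTCF degradation and ended 5 calls in all. Fits of only the groups compared left 0 of 1 there, 0 of 3 for wild-type and 0 of 1 for mutated CTCF against control, 1 of 2 for mutated against wild-type CTCF with IAA and 1 of 2 for the interaction with wild-type CTCF. Quantile normalisation left 0 of 1 for mutated CTCF against control and 1 of 2 for mutated against wild-type CTCF with IAA. Groups from the treatment label, which pool wild-type libraries titled with and without IAA, left 0 of 3 for wild-type CTCF against control. Leaving out 1 library gave 4 to 5 for CTCF AID at 12 h, 4 to 6 at 24 h and 0 between them, 0 to 1 for RAD21 at 12 h, 2 to 4 at 24 h and 1 to 2 between them. It gave 5 to 8 for serum, 5 to 7 for the Chd4 hairpin, 4 to 5 for IAA in control cells, 3 to 5 with wild-type and 4 to 5 with mutated CTCF. It gave 0 to 1 for wild-type and for mutated CTCF against control, 1 for mutated against wild-type CTCF with IAA, 1 to 2 for the interaction with wild-type and 0 for that with mutated CTCF. The depth of the libraries before normalisation is unknown, so no counting interval is given.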
